A study of Mus musculus with 4 samples.

Results

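Krt14, Trp63, Pax9 and Notch1 are genes tied to the identity and fate of basal cells in the squamous epithelium that lines the esophagus. They were taken by gene name from a deposited table of Nrf2 binding in mouse esophagus, and they are 4 of its 1940 gene rows. They were chosen with earlier results of these data known, so their having a row is not a result. Of all protein-coding genes, 7.67% had a row. The 4 genes had 5 called intervals between them, 1 each at Krt14, Trp63 and Pax9 and 2 at Notch1. Those 5 intervals are 5 of the 1460 separate loci of the table, a locus being the binding region or regions listed under exactly the same genes.

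Binding was measured by chromatin immunoprecipitation and sequencing (ChIP-seq) with an Nrf2 antibody (Santa Cruz, sc-13032). The esophagus came from C57BL/6 mice of 3 genotypes, wild-type, Nrf2KO (knockout of Nrf2, gene symbol Nfe2l2) and Keap1KO (knockout of Keap1), with 1 library for each. The allele, age, sex and number of animals, and whether a deletion was limited to some cells, are not given in the labels. Whole esophagus holds muscle and stroma beside the epithelium, so a height cannot be assigned to basal cells, and binding heights cannot check the cell type. More cells with binding and more binding per cell cannot be told apart. A 4th sample, pooled input DNA, was not analysed here.

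Nrf2 is a transcription factor that pairs with small Maf proteins and binds antioxidant response elements, and Keap1 is the adaptor that marks it for degradation. Mice born without Keap1 are known for a thickened, hyperkeratotic esophagus. Keratin 14, encoded by Krt14, is the type I keratin of basal cells and forms filaments with keratin 5. Trp63 encodes p63, the transcription factor on which stratified epithelia depend, and Pax9 a paired-box transcription factor needed for normal esophageal differentiation. Notch1 is a cell-surface receptor whose activation accompanies exit from the basal layer.

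The table gives a peak height for each library without naming its unit. The depth of the libraries is unknown, and any scaling between them is not given. Median heights over all loci were 18 in Keap1KO, compared with 5 in wild-type and 4.33 in Nrf2KO. Genotypes could not be tested against each other, since each has a single library, and every difference below is without a replicate check. Nearly all loci were in the table because of a call in Keap1KO (99.2%), which selects that height upwards. The targeted genes had row heights in Keap1KO of 78 (Nfe2l2) and 19.33 (Keap1). The wild-type heights were 17 and 6.33, and those of Nrf2KO 7 and 7.67. These do not check either deletion.

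At each of the 5 loci an interval was called in Keap1KO and in neither of the other libraries. Over all loci, 3.77% had a call in wild-type and 0 had one in Nrf2KO. A call in Keap1KO without one in wild-type was present at 96.2%. Heights in Keap1KO were 16 at Pax9, 18 at Krt14 and at Trp63, and 22 and 36 at the intervals of Notch1. In wild-type they were 3 at Krt14, Trp63 and Pax9 and 8 and 9 at Notch1. At each of the 5 loci the Keap1KO height was above those of the other libraries, which reached at most 11. Over all loci called in Keap1KO the height there was at least 9, with a first quartile of 14. Selection by that call therefore makes this order likely. Keap1KO was above wild-type at 98.8% and above Nrf2KO at 99.0% of all loci. The order between wild-type and Nrf2KO was not the same at the 5 loci, with wild-type higher at 3 and lower at 2, where it was higher at 53.8% of all loci.

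**Figure D1:**
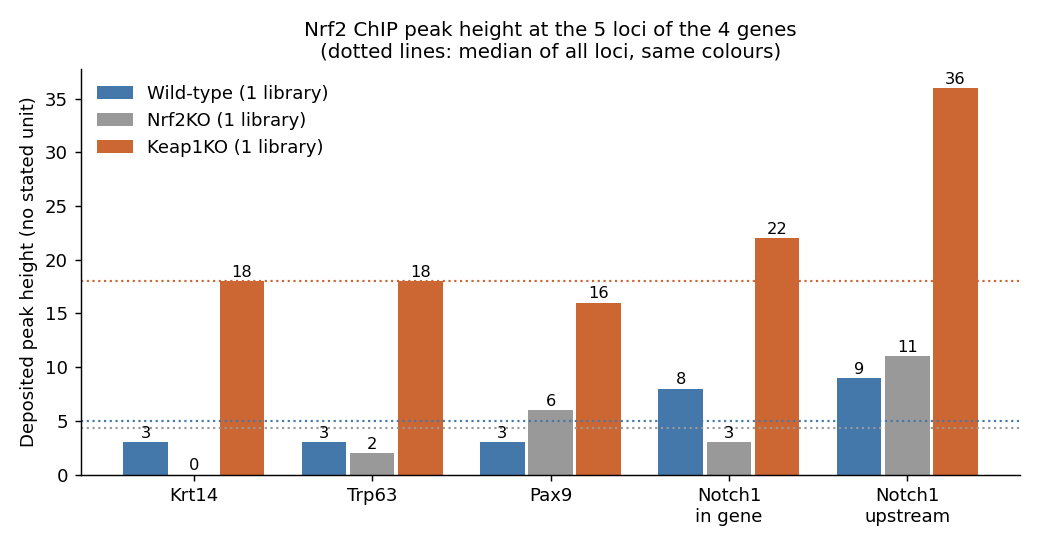
Deposited peak height (vertical axis, no stated unit) at the 5 loci of Krt14, Trp63, Pax9 and Notch1, with 1 bar per library and the height printed above it. Dotted lines mark the median of all 1460 loci in each library (5, 4.33 and 18). Krt14, Trp63 and Pax9 stand at or just under the Keap1KO median, and both Notch1 loci stand above it.

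None of the 5 intervals lay within 1 kb of a gene start, where 31.1% of all loci were. Positions are given in the mouse build mm10, which is the same assembly as the GRCm38.p6 of the RefSeq coordinates set beside them. The table says only whether an interval falls before, inside or after a gene, so exons and introns are not given here. It reaches up to 10586 bp upstream of a gene and 10233 bp beyond its end, and the Pax9 interval lies close to that limit.

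**Figure D2:**
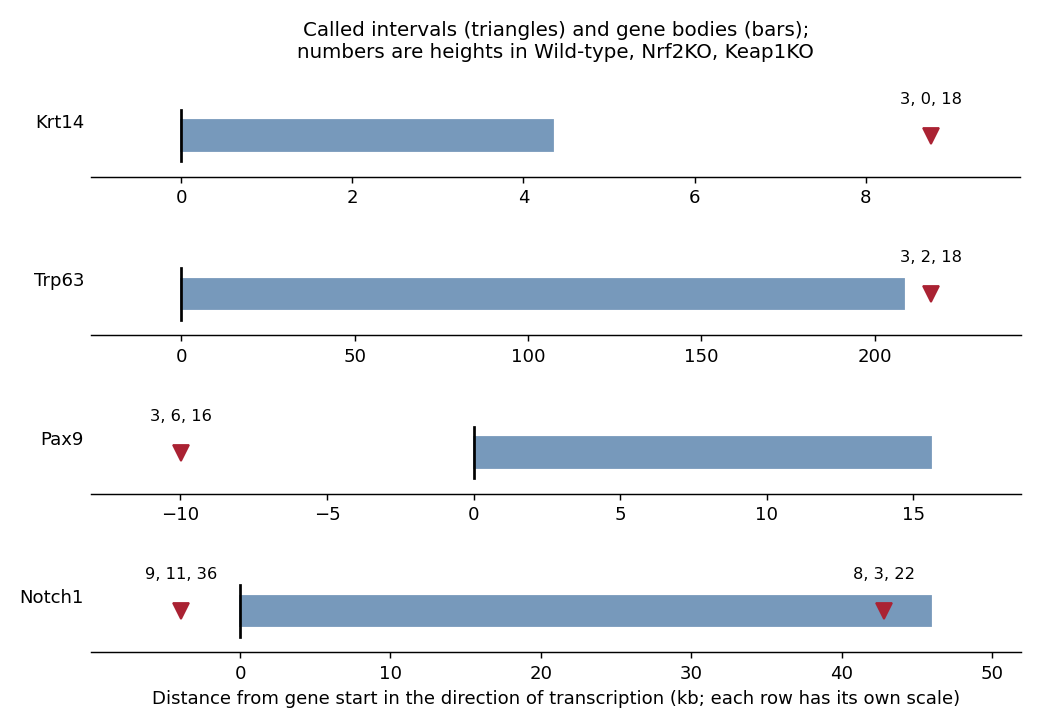
Gene bodies (bars) and called intervals (triangles) of the 4 genes against distance from the gene start in kb, in the direction of transcription, with a separate scale for each gene. The 3 numbers at each triangle are the heights in wild-type, Nrf2KO and Keap1KO. The intervals of Krt14 and Trp63 lie beyond the gene end, that of Pax9 lies upstream, and Notch1 has 1 upstream and 1 near the end of the gene.

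The structural gene of the group, Krt14 (GeneID 16664, chromosome 11, 100203162 to 100207510, minus strand), had an interval 4410 bp beyond its end, at position 100198752. The same interval is listed under Krt9, a keratin gene of the palms and soles, 5506 bp upstream of its start, so the table does not assign it to one of them. The height was 18 in Keap1KO and 3 in wild-type, and in Nrf2KO it is listed at 0. Keap1KO was 4.75-fold above wild-type, on the scale of height plus a pseudocount of 1 that is used for every fold here and that understates the change of low loci. No fold over Nrf2KO is given, because the height there is listed at 0, as it was at 48 of the 1460 loci (3.29%).

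The Krt14 height in Keap1KO lay near the middle of the table, with 669 loci higher. Among the 268 loci that lay outside genes and more than 1 kb from a start, the median in Keap1KO was also 18, with quartiles of 14 and 23. The nearest other loci were 884 kb away on one side (5 genes, among them Naglu) and 915 kb away on the other. The latter was the locus of Krt24, another type I keratin gene, with a height of 14 in Keap1KO, compared with 2 in wild-type and 0 in Nrf2KO. Only intervals near genes are listed, and over all regions of the table the median distance to the nearest other region was 188 kb.

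Of the transcription factor genes, Trp63 (GeneID 22061, chromosome 16, 25683765 to 25892088, plus strand) had an interval 7752 bp beyond its end and 216075 bp from its start, at position 25899840. No other gene is listed with it, and the nearer edge of the next RefSeq gene on the far side, P3h2, was 59.4 kb away. The height was 18 in Keap1KO, compared with 3 in wild-type and 2 in Nrf2KO. Wild-type and Nrf2KO lay 1 unit of height apart, while Keap1KO was 4.75-fold above wild-type and 6.33-fold above Nrf2KO. The Keap1KO and wild-type values equalled those of Krt14. The nearest other locus, that of Lpp, was 1173 kb away.

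Pax9 (GeneID 18511, chromosome 12, 56695639 to 56711230, plus strand) had its interval 9975 bp upstream, at position 56685664. RefSeq begins Pax9 at 56691693, which is 6029 bp from the interval, and places the interval within Gm15524, a long non-coding RNA gene. Its height was 16 in Keap1KO, compared with 6 in Nrf2KO and 3 in wild-type, so the library without Nrf2 stood above wild-type. Wild-type lay below Nrf2KO at 522 of all 1460 loci (35.8%). Keap1KO was 4.25-fold above wild-type but 2.43-fold above Nrf2KO, the smallest fold over Nrf2KO of the 4 loci with one. The Pax9 height in Keap1KO was the lowest of the 5, with 846 loci of the table above it.

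The receptor gene Notch1 (GeneID 18128, chromosome 2, 26457902 to 26503822, minus strand) was the only one of the 4 with more than 1 region. Its row gives only the means of both, 29 in Keap1KO, compared with 8.5 in wild-type and 7 in Nrf2KO. The heights of the separate regions follow from neighbouring rows. Sec16a has a single region with a Keap1KO height of 13, and 0610009E02Rik has the mean of that region and of the Notch1 region inside the gene, 17.5, which gives 22 for the latter and 36 for the upstream one. The table lists 22 and 36 as the single highest values of 0610009E02Rik and Notch1.

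The Notch1 interval inside the gene lay 42830 bp from its start and 3090 bp before its end, at position 26460992, and is also listed under the non-coding gene 0610009E02Rik. Its height was 22 in Keap1KO, compared with 8 in wild-type and 3 in Nrf2KO. Wild-type was 2.25-fold above Nrf2KO, the only one of the 4 loci with a fold at which it was at least 2-fold higher. Keap1KO was 2.56-fold above wild-type, the smallest such fold of the 5, and 5.75-fold above Nrf2KO. Among the 435 loci more than 20 kb into a gene, the median heights were 17 in Keap1KO, compared with 4.5 in wild-type and 4 in Nrf2KO.

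The upstream interval of Notch1 lay 3922 bp before the start, at position 26507744, and is listed under no other gene. RefSeq places Gm35978, a long non-coding RNA gene, between Notch1 and this interval, 2397 bp from the interval. The height of this interval reached 36 in Keap1KO, compared with 11 in Nrf2KO and 9 in wild-type. It was the tallest of the 5 loci in every library, Nrf2KO included, where 50 of the 1460 loci were higher. In Keap1KO 107 loci were higher. Keap1KO was 3.70-fold above wild-type and 3.08-fold above Nrf2KO, and wild-type was 0.833 times Nrf2KO.

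The intervals of Notch1 lay 46.8 kb apart. The height in Nrf2KO was 3 inside the gene and 11 upstream of it, while in wild-type the heights were 8 and 9. Subtracting Nrf2KO from Keap1KO left differences in height of 19 inside the gene and 25 upstream. The same subtraction left 18 at Krt14, 16 at Trp63 and 10 at Pax9. These are differences of unscaled heights between libraries of unknown depth, so their order was not checked against depth. With every library scaled to the same median height, Keap1KO lay below Nrf2KO upstream of Notch1 (log2 ratio −0.32) and at Pax9 (−0.54). It lay above Nrf2KO inside Notch1 (0.67) and at Trp63 (0.86), so the order was not kept on that scale.

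**Figure D3:**
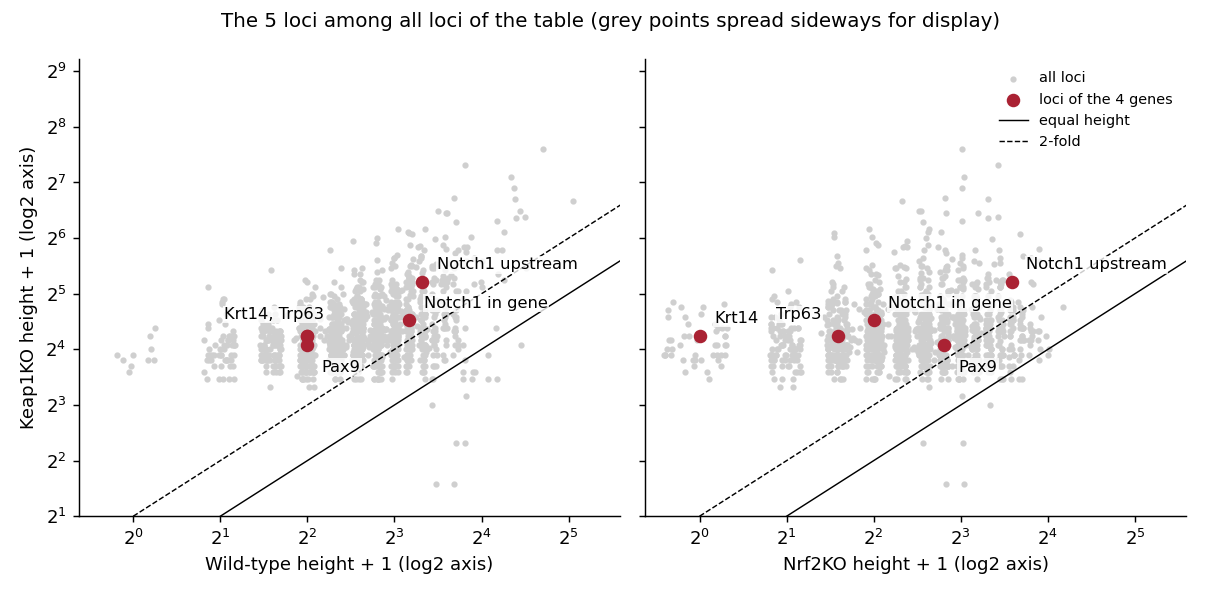
Keap1KO height plus 1 against wild-type height plus 1 (left) and against Nrf2KO height plus 1 (right), on log2 axes, for all 1460 loci (grey) and the 5 loci of the 4 genes (red). The solid line marks equal heights and the dashed line a 2-fold difference. All 5 loci lie above the dashed line in both panels, and 1285 of all loci lie on or above it on the left and 1245 on the right.

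All 5 loci had a Keap1KO height at least 2-fold above that of wild-type, against 88.0% of all loci, and at least 2-fold above that of Nrf2KO, against 85.3%. None had one 2-fold lower, against 0.274% and 0.137%. These shares are close to those of the table as a whole and say nothing particular about the 4 genes. As log2 ratios, the median for Keap1KO against wild-type was 2.09 over the 5 loci and 1.74 over all loci. Against Nrf2KO it was 2.52 and 1.91, with Krt14 counted at the value its pseudocount gives. The comparisons share libraries. Between the other libraries, 2 of the 5 loci had a wild-type height 2-fold or more that of Nrf2KO, those of Krt14, where Nrf2KO is listed at 0, and of Notch1 inside the gene, against 18.8% of all loci. It was 2-fold lower at none, against 8.29%. Scaling every library to the same median height took the median log2 ratio of all loci from 1.74 to 0.07 for Keap1KO against wild-type and from 1.91 to 0.07 against Nrf2KO. On that scale 0 of the 5 loci had a Keap1KO height at least 2-fold above wild-type, against 133 of all 1460 loci. At least 2-fold above Nrf2KO was 1 of the 5, against 259 of all loci. It was that of Krt14, where Nrf2KO is listed at 0 and the pseudocount sets the ratio. Keap1KO then lay below wild-type at Notch1 inside the gene, with a log2 ratio of −0.34. It lay below Nrf2KO at Pax9 (−0.54) and upstream of Notch1 (−0.32). Equal medians bring the median ratio of all loci close to 0 by construction, so ratios below 0 are not particular to these loci. Of all loci, 66 were then at least 2-fold below wild-type and 149 at least 2-fold below Nrf2KO.

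The loci with the most similar heights are given next, with heights in the order wild-type, Nrf2KO, Keap1KO. By the distance between log2 heights over the 3 libraries, the nearest to Krt14 were those of Usp29, with the same heights of 3, 0 and 18, and of Serpina9 and Gm5091, with 3, 0 and 20 each. Nearest to Trp63 were Pcbp3 and Slc25a17, both with its heights of 3, 2 and 18, and Dapk1, tied with Srsf4, with 3, 2 and 19. Kat2b had the heights of Pax9 (3, 6 and 16), followed by Ube2e1 (3, 6 and 17) and Dap (3, 6 and 15). For Notch1 they were, inside the gene, the locus of Psma4 and 2 neighbouring genes (8, 3 and 24), Rab15 (9, 3 and 22) and Tbxas1 (8, 3 and 25). For its upstream interval they were the locus of Dcst2 and Zbtb7b (9, 11 and 35), Zwint (9, 10 and 34) and that of Alg2 and Sec61b (10, 10 and 36).

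Around these 4 genes stand others tied to basal cells. A list of 21 basal squamous genes had a row for 6 of them. Of the 17 other than the 4 genes, 2 had one (11.8%), against 7.67% of protein-coding genes. Itgb1, the integrin beta1 subunit that anchors basal cells to the basement membrane, had an interval 278 bp upstream of its start, and a height of 19 in Keap1KO against 9 in wild-type and 8 in Nrf2KO. Sox15, a Sox family transcription factor gene, had 12 in Keap1KO and 9 in each of the others at an interval 5801 bp beyond its end that is shared with 5 other listed genes, among them Cd68 and Eif4a1. At 6 of the 7 loci of the list, 5 of which are those of the 4 genes, the Keap1KO height was 2-fold or more that of wild-type, against 88.0% of all loci, Sox15 being the exception and Itgb1 standing exactly at 2-fold. The median of their log2 ratios was 1.89, against 1.74 over all loci.

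Of 30 Notch pathway genes, 4 had a row, Notch1 among them. Without Notch1 they were 3 of 29 (10.3%), against 7.67% of protein-coding genes. Hes1, a repressor that Notch signalling switches on, had a pair of regions 8301 and 2749 bp upstream of its start, given only as means of 26 in Keap1KO, compared with 8 in wild-type and 5.5 in Nrf2KO. Heyl, of the related Hey family of repressors, had 12 in Keap1KO, compared with 10 in wild-type and 5 in Nrf2KO at an interval 6572 bp into the gene, where Keap1KO was 1.18-fold above wild-type. Psenen, a subunit of the gamma-secretase that releases the active part of Notch, had 21 in Keap1KO, compared with 10 in wild-type and 6 in Nrf2KO at an interval shared with 3 other genes. At all 5 loci of the list, the Notch1 loci included, Keap1KO stood above wild-type, against 98.8% of all loci, and at 4 by 2-fold or more, against 88.0%. No row was listed for a ligand of the Jag or Dll families, for another Notch receptor or for Rbpj, the DNA-binding partner of Notch.

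Of 16 squamous keratin genes, Krt14 and Krt76 had a row, the latter with 20 in Keap1KO, compared with 6 in Nrf2KO and 5 in wild-type at an interval also listed under Krt77. Without Krt14 this was 1 of 15 (6.67%), against 7.67% of protein-coding genes. Krt5, the filament partner of Krt14, had none. Of 30 genes of squamous differentiation, 2 had a row (6.67%). They were Ecm1, an extracellular matrix protein gene, with 19 in Keap1KO, compared with 4.5 in Nrf2KO and 3.5 in wild-type over a pair of regions also listed under Tars2, and Klf4, a transcription factor of differentiating epithelium, with 9, 1 and 3. Of the markers of other cells in the organ, 2 of 10 muscle genes (Ttn and Lmod1), 1 of 10 fibroblast and endothelial genes (Vim) and 1 of 8 immune genes (Cd68) had a row, beside the same 7.67%. The Cd68 locus is the one also counted under Sox15. Their Keap1KO heights ran from 12 to 21, a range that holds the heights of Krt14, Trp63 and Pax9.

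**Figure D4:**
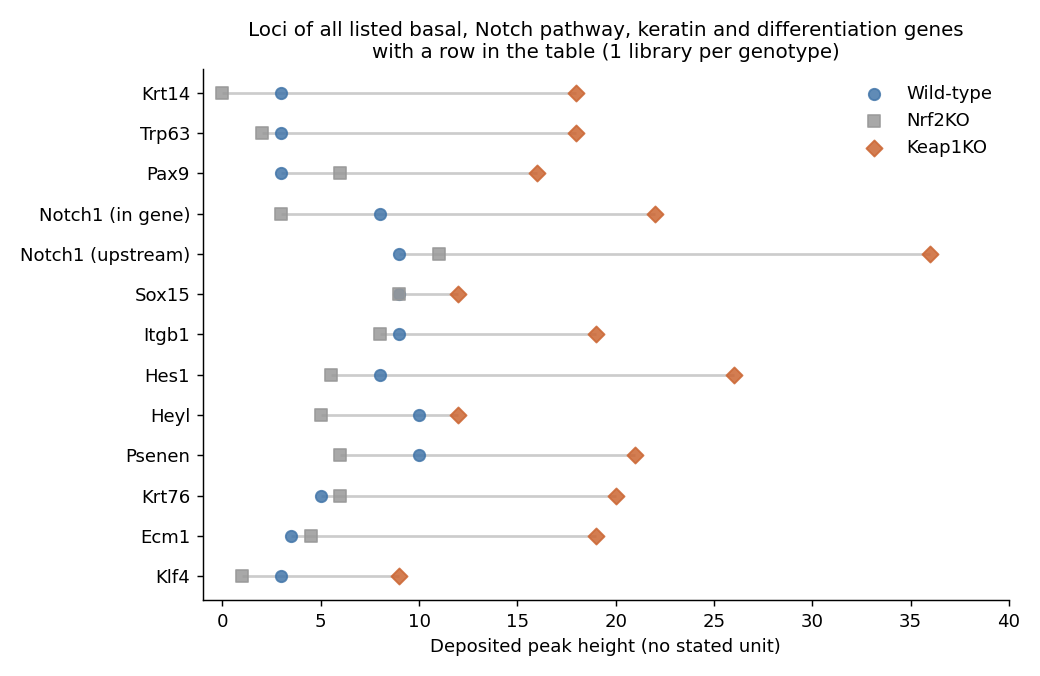
Deposited peak height (horizontal axis, no stated unit) in wild-type (circles), Nrf2KO (squares) and Keap1KO (diamonds) at each locus of the basal squamous, Notch pathway, keratin and differentiation lists. The upstream interval of Notch1 (36) and the Hes1 regions (26) are the tallest in Keap1KO, and Sox15 and Heyl (12 each) show the smallest distance between Keap1KO and wild-type.

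The letters of the 5 intervals could not be read from the sources used here, so no interval sequence is shown. Promoter sequences in RefSeq (GRCm38.p6), from 250 bases before to 50 after a gene start, were matched for Krt14, Pax9 and Notch1, and none of the 5 intervals lay in any promoter window. On both strands, none of the 3 promoters held TGACNNNGC, the core of the antioxidant response element, which is in 12.4% of all 32851 promoter windows. None held TGANTCA, the core bound by AP-1 and NF-E2 proteins, which is in 7.81%. This says only that these letters are not in those windows.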

How the data were processed

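Nrf2 ChIP-seq heights of 1 library per genotype (wild-type, Nrf2KO, Keap1KO) were read from 1 deposited table of 1940 gene rows. The tools BWA and MACS2 2.1.0 and the build mm10 come from the submitters' processing notes, which give no settings. Per the file headers, the deposited signal is an average peak height over the active regions of a gene, with a flag for a called interval. All 5043 heights of genes with 1 region were whole numbers.

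Interval positions were computed from gene start, strand and distance, and all 1727 came out at 1 position. Intervals up to 704 bp apart were merged to the stated region counts (1684 regions, 1460 loci). Locus heights were solved by least squares (largest residual 0.00186; Python 3.11.15, numpy 2.4.6), which was tested on simulated data. Ratios used a pseudocount of 1 and a 2-fold rule of size, with no test. The genes named were the 4 genes, those sharing a locus with them, their neighbouring loci, list genes with a row, and the 3 loci of nearest heights. Members and lists were chosen with earlier results of these data known, and 1 gene first in the basal list is not reported here. Alternatives were other pseudocounts, library scaling, fold rules, filters, gene rows and distance limits.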

Additional observations from a re-analysis of the deposited data

How the results depend on the processing

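No paired analysis was possible because there is 1 library per genotype, and none could be left out. Of 144 values under an alternative, 92 kept their size within 1.5-fold (5 points for a percentile) and their side of the 2-fold rule, 49 moved and 3 changed sign. A larger pseudocount shrinks ratios and a filter removes loci by construction; the cause of the other moves was not tested. Unknown depth limits every ratio between libraries. Equal library medians assume that typical binding did not differ, although loci were selected by Keap1KO calls.

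With heights scaled to equal medians, the log2 ratio of Keap1KO to wild-type went to 0.58 at Krt14 and at Trp63, 0.44 at Pax9, −0.34 at Notch1 inside the gene and 0.14 upstream of it. That of Keap1KO to Nrf2KO went to 0.86 at Trp63, −0.54 at Pax9, 0.67 at Notch1 inside the gene and −0.32 upstream. Loci at least 2-fold apart were then 133 (Keap1KO higher than wild-type, 0 of the 5) and 66 (lower), and 259 (higher than Nrf2KO, 1 of the 5) and 149 (lower).

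A pseudocount of 5 gave Keap1KO over wild-type ratios of 1.52 at Krt14 and at Trp63 and 1.39 at Pax9. It gave Keap1KO over Nrf2KO ratios of 1.72 at Trp63, 0.93 at Pax9 and 1.75 at Notch1 inside the gene, where wild-type over Nrf2KO was 0.70. Wild-type was then 2-fold above Nrf2KO at 58 loci and 0 of the 5 and below at 14, and Keap1KO below Nrf2KO at 0.

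With loci limited to those at or above the median of mean heights, 2 of the 5 were kept. The others were removed by the filter, with their ratios unchanged. Keap1KO was higher than wild-type at 661 loci (both of the 2 kept) and lower at 0. It was higher than Nrf2KO at 632 (both of the 2 kept) and lower at 0. For wild-type and Nrf2KO the counts were 120 higher (1 of the 2 kept) and 38 lower. The number of all loci kept is not given here. A 1.5-fold rule gave 7 lower for Keap1KO over wild-type and 480 higher and 276 lower (1 of the 5) for wild-type over Nrf2KO. A 3-fold rule gave 2 lower, then 105 higher (1 of the 5) and 27 lower, and 0 lower for Keap1KO over Nrf2KO. With one value per gene row, 1 of the 4 genes had wild-type 2-fold above Nrf2KO, and 4 rows had Keap1KO 2-fold below Nrf2KO.

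Intervals within 10 kb of the gene start left 1 keratin, 1 differentiation and 0 muscle genes, and left 3 of the 4 genes, without Trp63. Calls of at least the median called height (18 in Keap1KO, 13 in wild-type) left 4 basal genes and 1 differentiation gene. They left 0 fibroblast and endothelial genes, 0 immune genes, and 3 of the 4 genes, without Pax9. Krt14 and Trp63, at 18 in Keap1KO, stand exactly at that limit. A limit at the median drops many called loci by construction. The share of all genes kept by either filter is not given here.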
